A study of Drosophila melanogaster with 60 samples.

Results

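The Enhancer of split complex of Drosophila melanogaster holds 7 genes for basic helix-loop-helix (bHLH) repressors, E(spl)mdelta-HLH, E(spl)mgamma-HLH, E(spl)mbeta-HLH, E(spl)m3-HLH, E(spl)m5-HLH, E(spl)m7-HLH and E(spl)m8-HLH. They were taken by symbol from the annotation, as the protein-coding genes of chromosome arm 3R whose name starts with E(spl)m and ends with -HLH, and are 7 of the 13968 protein-coding genes measured. They are called mdelta, mgamma, mbeta, m3, m5, m7 and m8 here. The study profiled embryonic nuclei by ChIP-seq for the Hox factor Ubx, the histone marks H3K27ac and H3K27me3, and the Polycomb recruiter Pho. Nuclei of 1 tissue were captured by INTACT, which tags the nuclear envelope under a tissue driver. Ubx was mapped with a home-made gp-Ubx antibody in mesodermal nuclei (genotype twi-INTACT) and neuronal nuclei (elav>INTACT), early (stages 10 to 13) and late (stages 14 to 17). The group sizes were 3 lists for early mesoderm and 2 lists each for late mesoderm, early neuronal and late neuronal nuclei. Both histone marks were mapped in twi-INTACT mesoderm, with 2 early and 2 late lists each. They were also mapped at stages 14 to 17 in a control (twi-INTACT; UAS-Nslmb,GFP-Ubx) and under Ubx degradation (twi-INTACT, Mef2>Nslmb,GFP-Ubx), with 3 lists each, and so was Pho. The control and the degradation embryos both carry GFP-Ubx and the UAS-Nslmb degrader, an F-box domain fused to a GFP-binding nanobody. They differ by the Mef2 driver, which acts in muscle, so other cells of the embryo are not targeted, and how much Ubx protein was lost was not measured in these lists.

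In flies, a Notch receptor that has bound Delta or Serrate on a neighbouring cell is cut, and its intracellular part joins the DNA-binding protein Su(H) and the coactivator mam to switch on the E(spl) bHLH genes. The encoded proteins bind DNA together with the corepressor gro and silence proneural genes, which keeps the receiving cell from the neural fate. In the embryonic mesoderm the same pathway limits how many cells become muscle progenitors. H3K27me3 is laid down by Polycomb complexes over silenced genes, H3K27ac marks active promoters and enhancers and sits on the same lysine, and Pho is a DNA-binding protein that brings Polycomb complexes to their sites.

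The values are the percent of each gene region covered by peaks of 1 list, the region running from 2 kb upstream of the start to the end of the gene. The lists give no read depth, so list length is the only sign of it: the covered length ran from 0.172 to 16.6 Mb for Ubx, 1.01 to 26.9 Mb for H3K27ac, 1 to 21.4 Mb for H3K27me3 and 11.9 to 18.5 Mb for Pho. The late mesoderm replicate 3 lists of both marks, the late neuronal Ubx lists and the early mesoderm Ubx list R stand apart by being short. The peaks of 2 lists carry another replicate's name: those of early mesoderm Ubx R2 are named as S, and those of H3K27ac control 3 as replicate 2. The labels were followed, and the values without each of these lists stand beside the results they touch. Labels do not say whether replicates are separate collections of embryos, so p-values measure the spread between these lists. H3K27ac coverage of 8 mesoderm and muscle markers exceeded that of 8 neuronal markers in 10 of 10 mesoderm lists (median gene 14.6% against 6.23%). In the median list twi was covered by 3.68% and the neuronal marker elav by 13.6%; the part of other cells in the results below was not tested.

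The members lie within 43.4 kb of 3R (dm6), in the order given above. The coordinates are 3R:25997621-25998633 for mdelta, 3R:25999851-26000761 for mgamma, 3R:26005046-26006023 for mbeta, 3R:26021823-26023127 for m3, 3R:26028854-26029735 for m5, 3R:26037038-26038019 for m7 and 3R:26040240-26041008 for m8. The genes mbeta and m5 are on the minus strand and the others on the plus strand. Their regions are 2769 to 3305 bp long, against a median of 4164 bp over all genes, and those of mdelta and mgamma share 783 bp. Between them lie 4 Bearded family genes (E(spl)malpha-BFM, m2, m4 and m6), whose products inhibit the Delta-internalising ligase Neuralized, and Kaz-m1, a Kazal-type protease inhibitor gene. Next to m8 lies gro, the corepressor gene, whose region (3R:26039736-26049911) contains the whole m8 gene.

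The 250 bp before each member's start were searched on both strands for the Su(H) letters GTGGGAA or GTGAGAA, the proneural E-box letters GCAGCTG or GCAGGTG and the N-box letters CACNAG that E(spl) proteins bind. Su(H) letters occurred before 2 of 7 members (m5 and m8) and before 5.35% of the 13968 genes. E-box letters occurred before m7 and m8, and before 7.1% of genes. N-box letters occurred before 4 of 7 members (mdelta, mbeta, m7 and m8), and before 23.9% of genes. The Pho core GCCAT occurred before mbeta and m3, and before 35.7% of genes. The Hox core TAATTA and the Exd-Hox letters TGATNNAT occurred before none of the 7, and before 19.4% and 16.9% of genes. Shown are the 3 windows that hold Su(H) or E-box letters, each 5′ to 3′ on its gene's strand from the release 6 reference, with Su(H), E-box and N-box matches in capitals. They lie at 3R:26029736-26029985 (minus strand) for m5, 3R:26036788-26037037 for m7 and 3R:26039990-26040239 for m8.
m5 promoter: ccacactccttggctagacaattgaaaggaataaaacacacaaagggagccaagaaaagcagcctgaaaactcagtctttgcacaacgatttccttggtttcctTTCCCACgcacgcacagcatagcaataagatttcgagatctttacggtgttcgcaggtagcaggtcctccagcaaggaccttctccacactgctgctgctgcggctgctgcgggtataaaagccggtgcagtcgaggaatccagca
m7 promoter: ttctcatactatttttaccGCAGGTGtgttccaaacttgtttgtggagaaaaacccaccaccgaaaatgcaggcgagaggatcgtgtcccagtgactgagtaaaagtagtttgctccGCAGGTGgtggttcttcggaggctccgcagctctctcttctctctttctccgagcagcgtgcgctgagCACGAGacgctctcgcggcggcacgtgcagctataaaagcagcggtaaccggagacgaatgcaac
m8 promoter: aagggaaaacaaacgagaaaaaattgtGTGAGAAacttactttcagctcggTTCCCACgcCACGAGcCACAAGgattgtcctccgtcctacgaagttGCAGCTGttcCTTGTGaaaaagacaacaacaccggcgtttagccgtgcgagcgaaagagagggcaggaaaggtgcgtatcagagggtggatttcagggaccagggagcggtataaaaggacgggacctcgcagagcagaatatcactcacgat
The m8 window holds 2 Su(H) matches, 1 E-box and 3 N-boxes, none of which overlap another.

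H3K27me3 covered the E(spl) genes more than most genes in mesodermal nuclei. Over the 70 values of 7 members in 10 lists, the median member stood at percentile 96.8 of all genes, and 63 values were above the middle of all genes. The peaks covered 5.94 to 94.3% of the complex, which was 2.3 to 10.2 times the share of the genome that the same list covered. The share of the complex was 36.7 to 84% in the control and 78.9 to 94.3% under degradation. It was 11.3 to 12.9% in early and 5.94 to 17.2% in late mesoderm. Coverage was lower past the outer genes, except at the nearest one. CG43116, whose region overlaps the upstream part of mdelta, was covered by a median of 19.2% and up to 74%. Its gene body was covered by a median of 5.46% and up to 82.1%. The next genes on that side, fid and Nf1, had region medians of 1.79 and 1.42%. On the side of m8 the region of gro had a median of 11.6% and its gene body a median of 0%, at most 9.27%, and Exo84 beyond it had a peak in 2 of 10 lists.

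**Figure D1:**
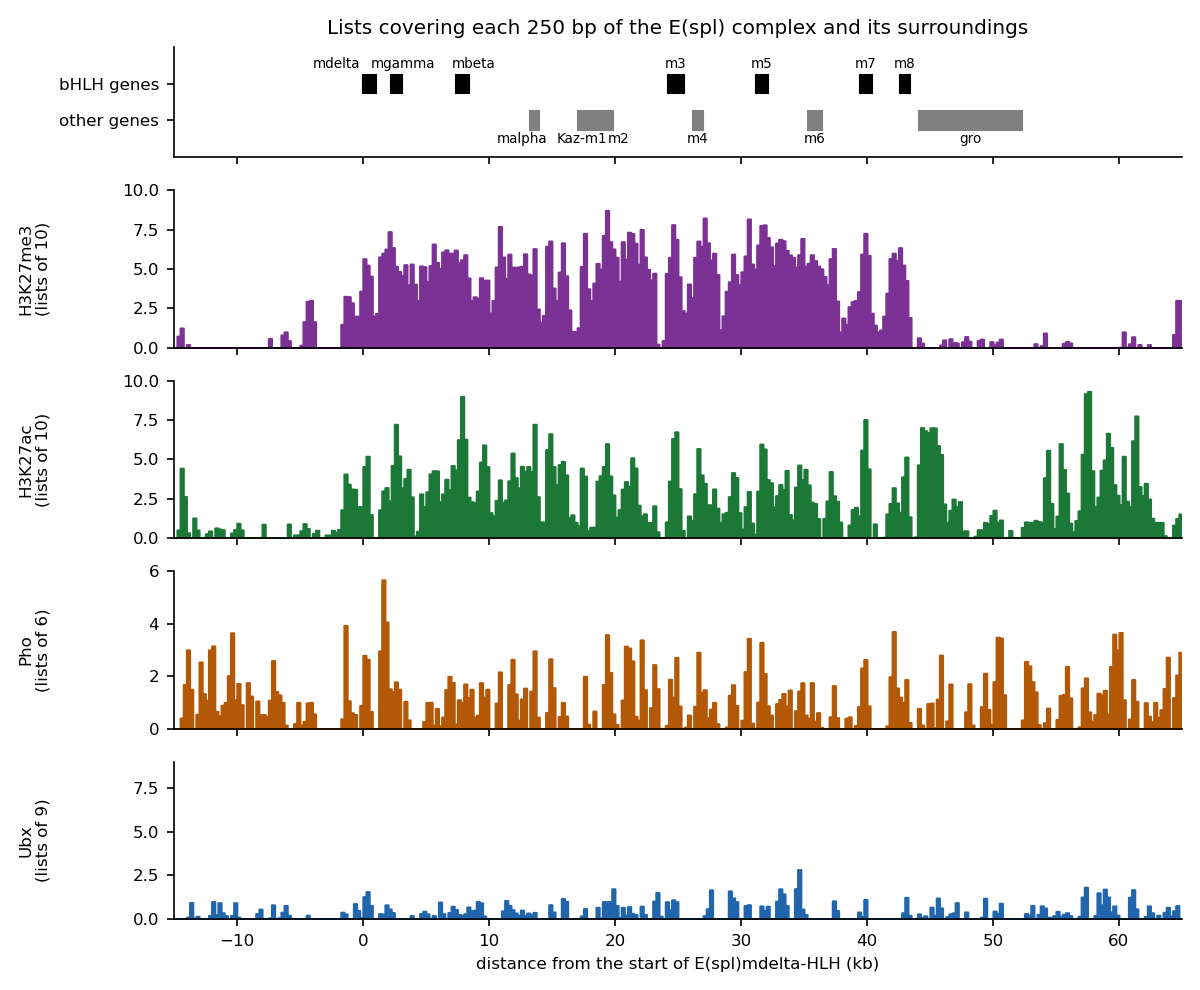
Number of peak lists covering each 250 bp, averaged within the bin, from 15 kb before to 65 kb after the start of E(spl)mdelta-HLH, with 1 panel for each antibody and the genes drawn to scale on top. H3K27me3 is dense between mdelta and m8, with gaps, and sparse over the body of gro. Pho peaks at the bin between mdelta and mgamma, and no Ubx bin exceeds 3 of 9 lists.

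Among the 7 members m5 was covered most, with a median of 70.7% over 10 lists, and it was the highest or tied for highest member in 9 of them. In the control it was covered by 100, 100 and 38.1%, and under degradation by 100% in each of the 3 lists. In early mesoderm its values were 24.5 and 41%, and in late mesoderm 41.3 and 16.2%. The peaks over the m5 start were 5037 to 14442 bp long in the 5 lists that covered it whole. The next member, mgamma, had a median of 57.1% and stood below m5 in 7 lists, tied with it in 2 and above it in 1. The median was 42.3% for m8, 39.6% for m3, 34.4% for m7 and 29.2% for mbeta, and neighbours in this order changed places from list to list. The lowest was mdelta with a median of 16.8%, below mbeta in 8 of 10 lists. The non-bHLH genes between the members had medians from 33.8% for Kaz-m1 to 80.3% for m2, which is above m5.

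**Figure D2:**
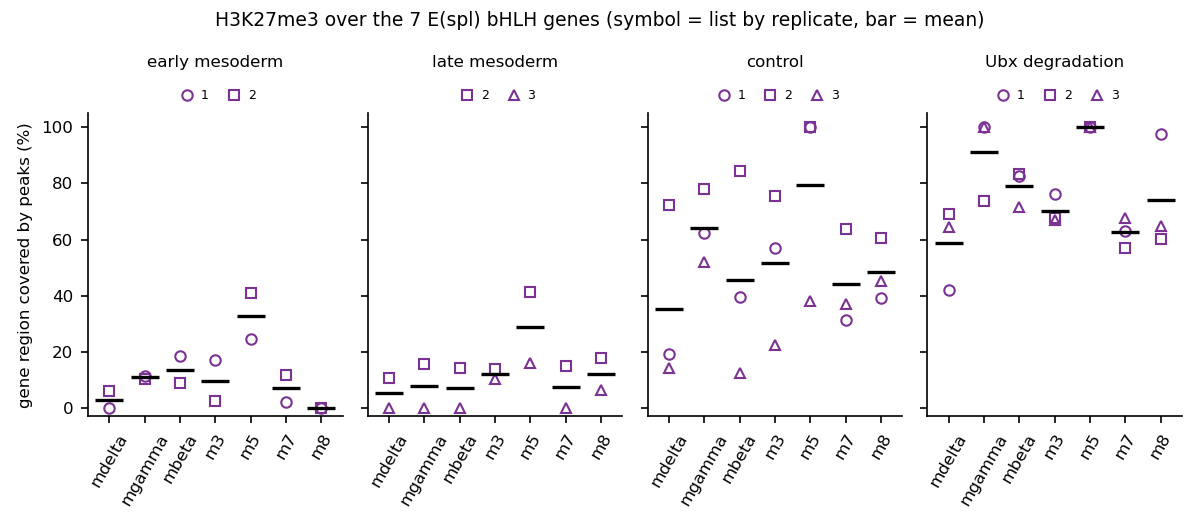
Percent of each member's region covered by H3K27me3 peaks in 4 groups of lists, with 1 symbol for each replicate and a bar at the group mean. In the degradation group m5 is at 100% in all 3 lists, while the control lists of every member are spread, with m5 between 38.1 and 100%.

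H3K27me3 was compared between control and Ubx degradation, which asks whether removing Ubx from muscle changes the mark. Lists were trimmed to 8.58 Mb. Under degradation 7 of 7 members had a higher mean, by a median of 22.6 points against -0.735 points over the 8103 genes tested. The members are not separate observations, since single peaks spanned several of them. In degradation 1 as deposited, a peak of 8821 bp lay over the starts of mdelta, mgamma and mbeta. Another of 14442 bp lay over those of m3 and m5. No member passed limma's test, and 0% of genes were called in either direction. For m5 the trimmed values were 100, 100 and 32.2% in the control and 100% in each degradation list (limma, adjusted p = 0.464). For mgamma they were 62.4, 78 and 47.7% in the control and 100, 73.9 and 100% under degradation, a difference of 28.6 points (limma, unadjusted p = 0.0654, adjusted p = 0.464). For mbeta the values were 39.7, 84.5 and 12.4% against 82.6, 83.4 and 71.6% (limma, adjusted p = 0.464). In each of these the groups overlapped, and control 3 was the lowest list; it is made of short peaks, with a median of 148 bp against 220 and 649 bp in the other controls. For all 7 members the groups overlapped; over all genes the lists did not overlap in 0.16% with higher and 0.309% with lower coverage. Control 3 decided much of the size: without it the difference was 2.77 points for mdelta (18.1 with it), 4.1 for m3 (18.7), 17.1 for mbeta (33.7) and 0 for m5 (22.6). It was 21.1 points for mgamma, 15 for m7 and 24.5 for m8. Of the other genes of the complex, 6 of 6 also had a higher mean, with 0 called and 2 at an unadjusted p under 0.05. The 13 tested genes of the Notch signal list (ligands, receptor, proteases and trafficking factors) had a lower mean, as did 7077 of the 8103 genes. As deposited, control 3 had a peak in 77.9% of genes, against 22.1 and 38.6% in controls 1 and 2. Without it 3478 genes entered the test. Its part in the lower means over all genes was not tested.

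H3K27me3 between the stages of twi-INTACT mesoderm rested on little: trimming to the shortest list left 1 Mb, and m3, m5 and m8 were the members covered in any trimmed list, which a gene needed to enter the test. All 3 were at 0% in both early lists. Their late means ± SD were 5.16 ± 7.3, 8.08 ± 11.4 and 3.27 ± 4.62% (n = 2 lists each), and none passed limma's test (lowest adjusted p = 0.414, 0% of 2447 genes called in either direction, 0 of the 3 members at an unadjusted p under 0.05). The lists of the 3 members overlapped, and over all genes 11.9% did not overlap with higher and 4.13% with lower late coverage. The call changed with single late lists, each time for much of the genome: without late replicate 2, m3, m5 and m8 were called higher late with 824 of 1166 genes, and without late replicate 3, m8 was called with 2939 of 10117. The complex was covered by 12.9 and 11.3% early and by 17.2 and 5.94% late, against 36.7 to 84% in the control at the late stages. That difference between genotypes was not tested.

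H3K27ac also reached every member. Its coverage was highest on mbeta, with a median of 39.2% over 10 lists and a range of 10.2 to 83.1%, and mbeta was the top member in 8 of 10. A stretch of 299 bp inside the mbeta gene, 3R:26005327-26005625, was covered in 9 of 10 lists, more than any other bases of the complex. The other members followed with medians of 22.9% for m5, 22.4% for m7, 21.8% for m3, 18.8% for mgamma, 16% for m8 and 13.2% for mdelta, which did not keep their order between lists. The gene bodies were covered more than the 2 kb upstream, by a mean of 44.4% against 20.3%, and in 49 of 70 member and list pairs against 15 with the reverse. The members' median percentile was 76.7, lower than for H3K27me3.

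**Figure D3:**
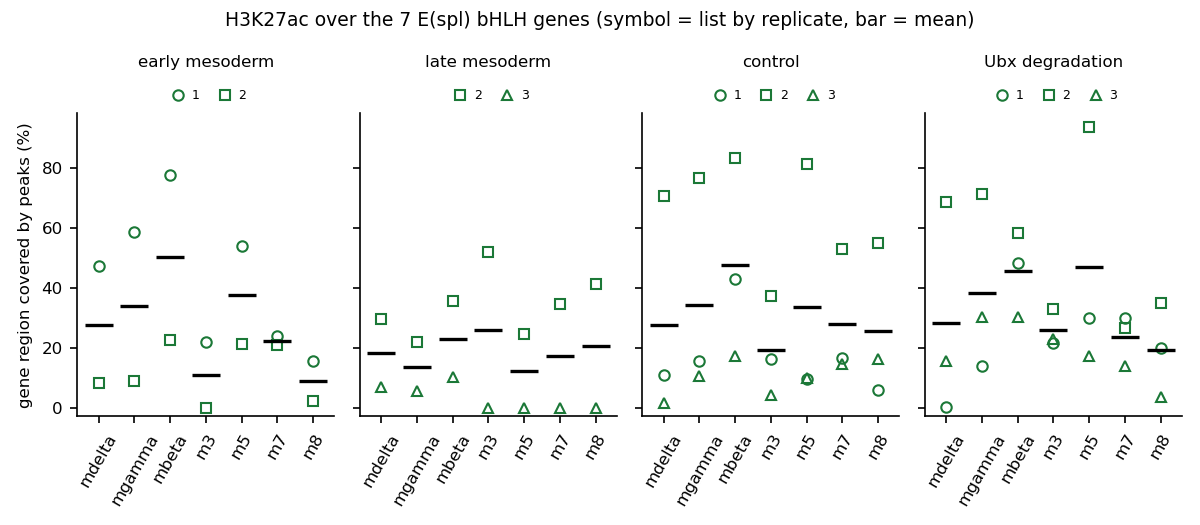
Percent of each member's region covered by H3K27ac peaks in 4 groups of lists, with 1 symbol for each replicate and a bar at the group mean. Replicate 2 is the highest list for every member in the control and for every member but m7 under degradation, and mbeta is covered in all 10 lists.

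In the control mbeta was covered by 42.8, 83.1 and 17.3%, and under degradation by 48.4, 58.4 and 30.4%; the groups overlapped. Replicate 2 covered 66.1% of the complex in the control and 58.6% under degradation, and replicates 1 and 3 covered 8.81 to 28.9%. Trimmed to 7.71 Mb, no member passed limma's test between the groups (adjusted p = 1 for each), and 0% of 13402 genes were called in either direction. The gene mgamma was the member at an unadjusted p under 0.05: its trimmed values were 0, 0 and 10.6% in the control and 14, 71.1 and 30.2% under degradation (difference of 34.9 points, unadjusted p = 0.00432, limma). These values do not overlap; over all genes the groups did not overlap in 0.903% with higher and 0.507% with lower coverage. In the lists as deposited they did, at 15.7, 76.5 and 10.6% against 14, 71.1 and 30.2%. Without control 3, the list whose peaks carry another replicate's name and whose length set the trimming, the mgamma difference was -0.899 points. Over the members 4 had a higher and 3 a lower mean under degradation, and m3 had a mean 4.14 points higher with a model coefficient of -0.00.

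Between the stages, H3K27ac lists were trimmed to 1.01 Mb, which left mdelta, mgamma, mbeta and m7 with any coverage. None was called by limma (lowest adjusted p = 0.648, 0% of 5540 genes called in either direction, 0 members at an unadjusted p under 0.05). The lists of these 4 overlapped, while 3.75% of genes did not overlap with higher and 9.03% with lower late coverage. The trimmed mbeta values had a mean ± SD of 0 ± 0% early and 5.12 ± 7.24% late (n = 2 lists each), while as deposited mbeta was covered by 77.6 and 22.6% early and by 35.7 and 10.2% late. The direction thus differs with the trimming, and the groups overlap in the deposited lists. Without late replicate 2, mdelta and mbeta were called higher late, as were 2405 of 5384 genes.

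In the control and degradation lists both marks often lay on the same bases. A nucleosome can carry 1 of the 2 marks on a given lysine, but a peak list pools many nuclei. Of the acetylated bases of the complex, 76.2, 99.3 and 53.8% also lay in H3K27me3 peaks of the same replicate number in the control, and 98.1, 99.2 and 90.1% under degradation. Over the whole genome the shares were 6.38, 30.5 and 28.4% in the control and 11.1, 24.5 and 34.2% under degradation. H3K27me3 peaks covered 63.7, 84 and 36.7% of the complex in the control and 94.3, 78.9 and 80.2% under degradation. They covered 6.23 to 15.6% of the genome in these lists. The share of acetylated bases also methylated grows with that coverage, which the comparison with the genome does not allow for. In twi-INTACT mesoderm this share in the complex was 15.8 and 46.1% early and 18.7 and 7.35% late, against 7.79, 1.5, 7.72 and 11.5% over the genome. H3K27me3 peaks covered 12.9 and 11.3% of the complex in these early lists and 17.2 and 5.94% in the late ones. For m5, H3K27me3 peaks covered 100% of the region in 5 of the 6 lists of the degradation series. The share of acetylated bases also methylated could there only be 100%. In control 3, with 38.1% of the region methylated, it was 71.1%. For mdelta the share was 0, 100 and 0% in the control, where 10.9, 70.6 and 1.66% of its region was acetylated. Under degradation it was 0, 99.1 and 54.3%, with 0.299, 68.7 and 15.5% acetylated, so some of these shares rest on few bases. In control 3 the share for mgamma was 14.6%. In twi-INTACT mesoderm the mdelta share was 0 and 48.2% early and 7.64 and 0% late. In control 2 and degradation 2 some H3K27ac and H3K27me3 peaks had nearly the same edges. In control 2 they were 25996117-25998244 and 25996082-25998261 over the mdelta start, and 26039397-26040914 and 26039278-26040951 over the m8 start. In degradation 2 they were 25996061-25998129 and 25996079-25998167 over the mdelta start, and 25998972-26001649 and 25998927-26001697 over the mgamma start. Over the m5 start they differed, at 2338 and 8716 bp in control 2 and 4217 and 8610 bp in degradation 2. The source of the like edges was not tested. Mixed cells and mixed nucleosomes cannot be told apart in these lists.

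**Figure D4:**
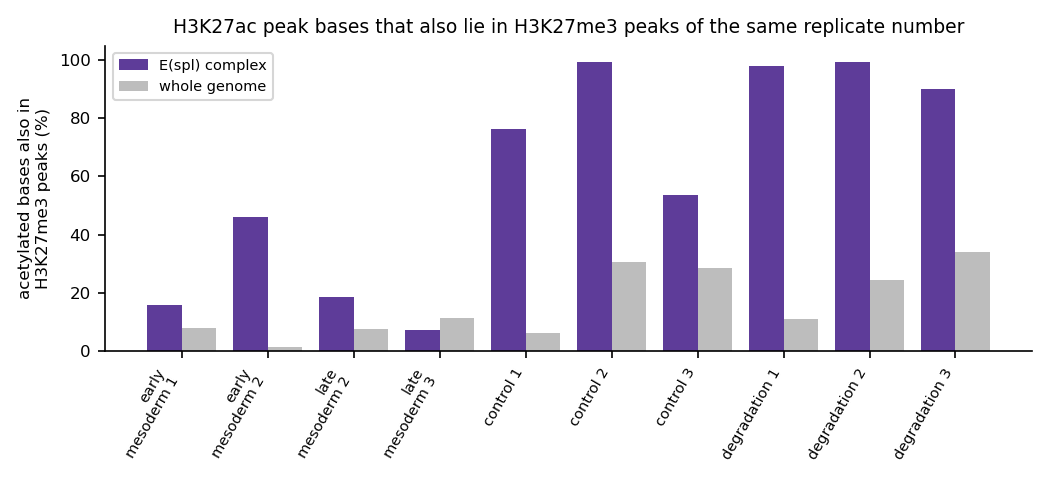
Percent of the bases in H3K27ac peaks that also lie in H3K27me3 peaks of the same group and replicate number, for the E(spl) complex and the whole genome. The complex stands above the genome in 9 of 10 pairs and reaches 99.3% in control 2. Late mesoderm 3 is the exception, at 7.35 against 11.5%. H3K27me3 peaks covered the complex 2.3 to 10.2 times as densely as the genome, which these bars do not allow for.

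Pho peaks overlapped all 7 member regions in 5 of 6 lists; m7 had none in degradation 2. This is a property of most genes in these lists, of which 87.2 to 93.6% had a Pho peak. The members stood at a median percentile of 71.1, and the complex was covered 1.1 to 1.94 times as densely as the genome. The highest member was mgamma, with 19.2, 33.8 and 29.8% in the control and 29, 46.8 and 34% under degradation, the top or tied member in 3 of 6 lists. The median of mgamma was 31.8% and that of the next member, mdelta, 19.4%, with mgamma above in 5 lists. In control 1 both were at 19.2% after rounding, with mdelta at percentile 72.7 and mgamma at 72.6. The remaining medians ran from 18.1% for m8 to 11.6% for mbeta. One stretch of 238 bp was covered in all 6 lists, the only such bases in the complex. It lies at 3R:25999051-25999288, between the end of mdelta and the start of mgamma, centred 682 bp upstream of the latter. The peaks over it were 249 to 1181 bp long, and their fold values, the authors' own for each peak, were 1.74 to 2.16. It is shown on the plus strand with matches to the Pho, Su(H) and N-box letters in capitals.
Pho stretch upstream of mgamma: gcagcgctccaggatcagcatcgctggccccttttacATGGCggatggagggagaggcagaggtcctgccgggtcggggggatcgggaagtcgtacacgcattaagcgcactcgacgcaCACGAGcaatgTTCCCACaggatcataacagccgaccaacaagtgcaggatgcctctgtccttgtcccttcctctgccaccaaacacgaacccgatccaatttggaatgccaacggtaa
It holds 1 Pho match, which 39% of windows of this length and distance before all genes also hold. It holds 1 Su(H) match, found in 4.79% of those windows, and 1 N-box, found in 28.4%.

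Pho did not pass the test at any member between control and degradation. With lists trimmed to 11.9 Mb, 6 of 7 means were higher under degradation, with a median difference of 2.47 points against 0.179 over the 13747 genes tested. For mgamma the trimmed values were those given above, a difference of 9.01 points (limma, adjusted p = 0.991), and the groups overlapped. All other members overlapped as well, while over all genes 6.04% did not overlap with higher and 3.59% with lower coverage; 0% were called, and 0 members had an unadjusted p under 0.05. The difference for m8 was -1.16 points with a model coefficient of 0.05, so mean and test differ in sign. The labels place control 1 and 2 and degradation 1 on one sequencing lane and the others on another. Within the first lane mgamma was at 19.2 and 33.8% against 29%, and within the other at 29.8% against 46.8 and 34%. With the lane as a term 0 members were called (limma, lowest adjusted p = 0.973).

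Ubx peaks reached the members in some lists and not in others. The complex was covered 2.03 times as densely as the genome in early mesoderm R2 and 3.06 times in early mesoderm S. In the other lists the ratio ran from 0 to 1.17. No late neuronal list had a peak in any of the 7 regions, nor did early mesoderm R. The early mesoderm list R2 had a peak in all 7, as had early neuronal S. Between these extremes, early mesoderm S reached mbeta and m5, early neuronal R reached mgamma, m3 and m5, late mesoderm R reached m3 and m7, and late mesoderm S reached mgamma, mbeta and m5. The lists that reached 7 members covered 9.15 Mb (early mesoderm R2) and 16.6 Mb (early neuronal S), and those that reached none 0.172 to 0.455 Mb. List length moves with these counts, and early neuronal R covered 11.2 Mb and reached 3 members. After the neuronal lists were cut to the same peak count, 0 members had a peak in every early and no late list. This held for 1.23% of genes, against 3 members and 63.8% of genes before the cut. The part of list length in the counts for single lists was not tested. As deposited, the genes with a peak in both early neuronal lists were mgamma, m3 and m5, or 3 of 7, against 70.9% of all genes. In early mesoderm, late mesoderm and late neuronal nuclei 0 of 7 members had a peak in every list, against 8.2, 18.8 and 0.802% of genes.

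**Figure D5:**
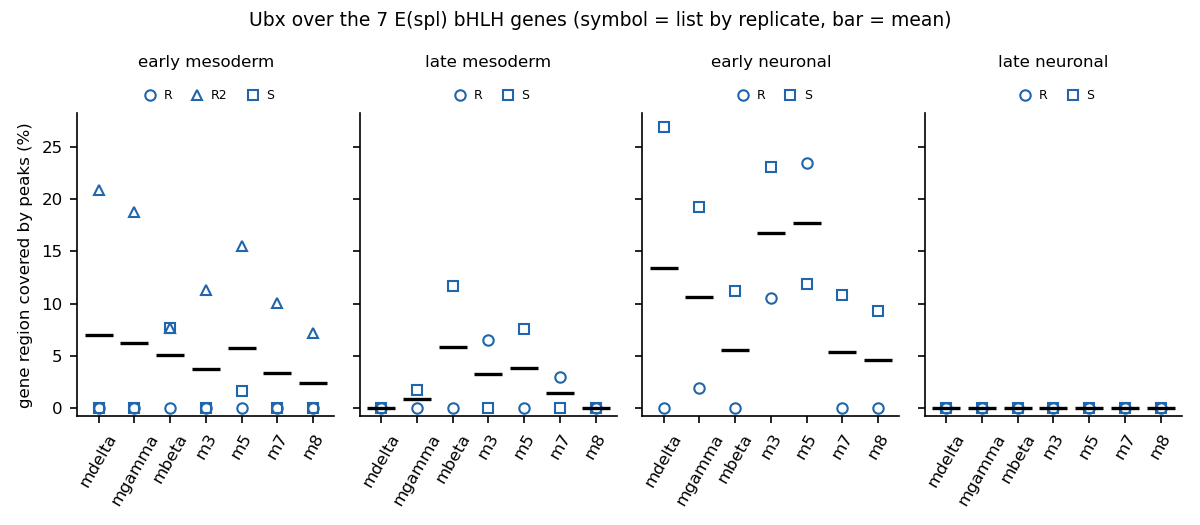
Percent of each member's region covered by Ubx peaks in 4 groups of lists, with 1 symbol for each replicate and a bar at the group mean. The late neuronal lists are at 0% throughout, m5 reaches 23.5% in early neuronal R, and early mesoderm R2 alone lies above 0 for mdelta, mgamma, m3, m7 and m8 in its group.

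For m5 the coverage was 23.5 and 11.9% in early neuronal nuclei (lists R and S), and 0, 15.5 and 1.67% in early mesoderm (lists R, R2 and S). It was 0 and 7.6% in late mesoderm and 0% in both late neuronal lists. For m3 it was 10.5 and 23.1% in early neuronal nuclei and 11.3% in early mesoderm R2, with 0% in the other early mesoderm lists. For mgamma the early neuronal values were 1.89 and 19.3%. The groups were called different at a gene where all lists of the first and none of the second had a peak. Between the neuronal stages this held for mgamma, m3 and m5, all early only, against 63.8% of genes, with 0.00716% late only. The members' count is no larger than that background, and both late lists are short. Without early neuronal R it held for 7 of 7 members and 84.5% of genes. Between the tissues and between the mesodermal stages 0 of 7 members met this rule, where 5.78% of genes met it for early neuronal over early mesoderm, 0.0215% the reverse, 14.8% for late mesoderm over late neuronal, 0.0573% the reverse, and 1.15 and 0.773% for the early and late mesoderm. Without early mesoderm R2, whose peaks carry another name, mgamma and m3 met it as early neuronal over mesoderm, as did 35% of genes. Without late mesoderm R 3 members met it as late mesoderm over late neuronal (35.9% of genes), and without late mesoderm S 2 members did (27.3%). The difference in mean coverage was 13.1 points for m3 and 12 points for m5 between early neuronal and mesodermal nuclei (exact permutation test, two-sided, p = 0.4 for each). With 3 lists against 2 the p cannot fall below 0.1, and with 2 against 2 not below 0.333, so no comparison could pass 0.05. The change of the tissue difference from early to late was 16.3 points for m3 and 15.8 for m5 (exact permutation test over 60 arrangements, p = 0.15 for each), and no member had a lower p.

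No base of the complex was covered in more than 3 of 9 Ubx lists. The stretches covered in 3 lists whose nearest start is a member's were 29 bp upstream of mgamma (3R:25999519-25999547, in both early neuronal lists and late mesoderm S) and 53 bp upstream of m5 (3R:26030594-26030646, minus strand, in both early neuronal lists and early mesoderm R2). They are shown on their gene's strand with matches to any of the letters searched in capitals.
Ubx stretch upstream of mgamma: atgctcggctgctttttgcggGCAGGTGa
Ubx stretch upstream of m5: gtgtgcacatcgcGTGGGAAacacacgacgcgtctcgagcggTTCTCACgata
The first holds an E-box, as do 0.773% of windows of this length and distance before all genes. The m5 stretch, centred 885 bp upstream of the start, holds 2 Su(H) matches, 1 on each strand; 1.05% of such windows hold at least 1 and 0.0286% hold 2. Neither stretch holds the Hox core or the Exd-Hox letters, which occur in 2.53 and 1.8% of windows of 29 bp and 3.22 and 3.31% of windows of 53 bp.

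Among the genes that act with the E(spl) proteins, none was called by limma in any of the 5 comparisons of marks and Pho. Of the 15 Notch signal genes 9, 5, 15, 13 and 15 could be tested for H3K27ac by stage, H3K27me3 by stage, H3K27ac by degradation, H3K27me3 by degradation and Pho, and 0 were called in each. Of the 5 nuclear partners 5, 1, 5, 2 and 5 were tested, and of the 12 bHLH relatives and proneural genes 3, 2, 11, 10 and 12, again with 0 called. Lists did not overlap for CtBP and da (lower late) in H3K27ac by stage, fng (higher late) in H3K27me3 by stage, and Delta (higher) and sc (lower) in Pho under degradation, and for gro and m2 in 2 comparisons each. All but gro and m2 are named here after their values were seen. The shares of all genes given above for each comparison are the background, such as 11.9% higher for H3K27me3 by stage and 0.903% higher for H3K27ac by degradation. For gro H3K27me3 was 0 ± 0% early and 1.15 ± 0.889% late (n = 2 lists each, limma, adjusted p = 0.414), and H3K27ac was 12.8 ± 5.54% in the control and 18.7 ± 0.816% under degradation (SD, n = 3 lists each, limma, adjusted p = 1). The gro region contains the whole m8 gene, so peaks over m8 count in these values and they are not separate from those of m8. The Bearded family gene m2 had H3K27me3 at 0 ± 0% early and 15.4 ± 3.85% late and H3K27ac at 10.2 ± 11.5% in the control and 47.2 ± 33.4% under degradation (limma, adjusted p = 0.414 and 1).

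Over all 35 lists the mean coverage of the members was most like that of side-V, drl, Psc, smal and CG15429, among genes over 50 kb away. Pearson's r was 0.96 for side-V, drl and Psc and 0.95 for smal and CG15429, against a median of 0.21 over all genes. Psc encodes a Polycomb group protein, and drl a receptor tyrosine kinase. The lists share 4 antibodies and differ in length, and the members' mean also followed the covered length of the list with an r of 0.72.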

How the data were processed

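ChIP-seq was read from 35 deposited peak lists, 1 for each immunoprecipitate; the 25 inputs have none here, and whether they served in peak calling is not given in the sources used here. Reads went through FastQC, Bowtie and MACS2 on dm6, per the submitters' processing notes, with no version or setting given. Libraries were amplified by ThruPLEX, per the labels' protocols. Each peak carries, as deposited by the authors, a score, a fold enrichment and −log10 p and q values; the score ranked peaks for trimming and the fold is quoted for single peaks. Read depth is unknown. The 5 combined Ubx lists the authors deposited served as an alternative.

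Genes came from the Ensembl release 115 annotation and sequences from the RefSeq release 6 genome, whose coordinates are those of dm6. Coverage of each gene region was computed in Python 3.11.15. For marks and Pho, lists were trimmed from the lowest score to the covered length of the shortest list of the comparison. Covered shares, after an arcsine square root transform, were compared by limma 3.58.1 with a variance trend in genes covered in at least 1 list, with Benjamini-Hochberg adjustment over all of them and a threshold of 0.05. The script was tested on data simulated with separate noise for each gene and list. Differences shared by a whole list were left out, so the test does not show how many real changes would be called here. For Ubx, groups were described by an overlap of at least 1 bp and compared by exact permutation tests on single members. Always named were the 7 genes, and of other genes those of the complex; 32 further names form 3 lists given as counts. The members and lists were chosen with earlier results of these data known. Same-numbered control and degradation lists deviated together for H3K27ac (correlations 0.42, 0.62 and 0.63) and H3K27me3 (0.30, 0.36 and 0.35), so their numbers pair them.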

Additional observations from a re-analysis of the deposited data

How the results depend on the processing

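No member was called in the 5 comparisons of marks and Pho under any alternative that kept all lists, and of 209 member differences under these alternatives and those for Ubx, 168 kept their direction, 20 reversed and 21 had none, being 0 or untested on one side. Part of the 168 was fixed in advance. The replicate block, the lane term and the fit without the filter on low values leave the group means as they are. Keeping the Ubx lists R and S alone changes only the comparisons with early mesoderm. In what follows a value is a difference in percent covered, later stage or degradation minus the other group, and the cause of each change was not tested. With lists as deposited, H3K27ac by stage gave -9.53 for mdelta, -20.2 for mgamma and -27.1 for mbeta, H3K27me3 by stage gave -4.02 for m5, and Pho gave -2.09 for m5 and -4.93 for m7. With the better-scored 50% of each list, H3K27ac by stage gave -1.71 for mdelta, -16.8 for mgamma and 5.37 for m7, H3K27ac by degradation gave -0.0996 for mdelta and 4.16 for mbeta, and Pho gave -3.97 for mdelta, -14.7 for mgamma, -11.4 for mbeta and -9.32 for m7. With a window around the start Pho gave -0.633 for m7.

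The replicate block changed no call for marks or Pho (0 members called in each, lowest adjusted p from limma 0.882 for H3K27ac, 0.519 for H3K27me3 and 0.996 for Pho). Same-numbered Pho lists did not deviate together (correlations -0.00, -0.01 and -0.02). No paired analysis was possible for the stages of the marks because the groups share 1 number. For Ubx no block was fitted, and lists R and S alone were kept, which is the same as leaving out early mesoderm R2. This gave the 2 members for the early tissues reported above. Between the mesodermal stages it gave 0.859 for mgamma, 3.24 for m3, 2.97 for m5 and 1.48 for m7. With the authors' combined lists the early tissues gave 1 member (mbeta, in mesoderm) and the late tissues 5. The neuronal stages gave 0 members with equal peak numbers and 0 with the better-scored 50%.

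Leaving out 1 list at a time, the members called ranged from 0 to 2 for H3K27ac by stage, 0 to 3 for H3K27me3 by stage, 0 to 2 for the early and 0 to 3 for the late Ubx tissues, and 3 to 7 for the neuronal stages. Differences ranged, for H3K27ac by stage, from -4.17 to 6.9 for mdelta, -4.55 to 4.67 for mgamma and -11.3 to 10.2 for mbeta. For H3K27ac by degradation they ranged from -0.899 to 47.1 for mgamma, -26.9 to 1.81 for mbeta, -3.04 to 13.4 for m3, -14.1 to 34.3 for m5, -9.69 to 5.95 for m7 and -9.75 to 5.77 for m8. For H3K27me3 by degradation they ranged from 2.77 to 38.9 for mdelta, 21.1 to 37.3 for mgamma, 17.1 to 53.2 for mbeta, 4.1 to 30.7 for m3, 0 to 33.9 for m5, 12.1 to 28.3 for m7 and 16.7 to 35.6 for m8. For Pho they ranged from -3.34 to 10.8 for mbeta, -0.973 to 12.7 for m3, -5.66 to 9.43 for m5, -4.46 to 2.98 for m7 and -8.59 to 4.56 for m8. Where 1 list was left in a group, it was assumed to vary like the others. H3K27me3 by stage without the filter on low values could not be fitted. Without read counts, a region without a peak is not shown to lack the protein or mark.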
